A study of Mus musculus with 12 samples.

Results

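The genes described here are 9 enzymes and mitochondrial carriers of heme synthesis, Alas2, Alad, Uros, Urod, Cpox, Ppox, Fech, Slc25a37 and Slc25a38, chosen by name and function, with no threshold on their values, from the 27998 genes of the count tables. They were measured in 12 single-cell RNA-seq libraries of c-Kit+ bone marrow cells, 1 library for each of 4 genotypes at T1 (2 weeks), T2 (2 months) and T3 (4 months) after pIpC, an inducer of interferon that switches on the Mx1-Cre recombinase. Mice were on a C57BL/6 background and received pIpC 5 times in every genotype, at an age the labels give as 8 to 12 weeks and the study's text as somewhat younger. WT mice carried no Mx1-Cre. E2-KO mice carried Mx1-Cre and floxed Ezh2 (Ezh2 f/f), a histone H3-Lys27 methyltransferase gene. G12D mice carried Mx1-Cre and the LSL-NRas G12D +/- allele, which gives an oncogenic RAS protein. G12D/E2-KO mice carried Mx1-Cre and both alleles. Every mutant therefore differed from WT in the recombinase as well as in the allele, and Mx1-Cre acts in many blood lineages. The labels do not say how many animals gave each library. The p-values of the reported fit measure how libraries depart from a sum of genotype and time point terms, with 1 library per combination. Spread between animals of the same genotype and time point was not measured.

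Heme is the iron-containing ring that carries oxygen in hemoglobin, and most of it is made in erythroid precursors. Alas2, the erythroid 5-aminolevulinate synthase, joins glycine and succinyl-CoA in the mitochondrion as the first and limiting step. Slc25a38 is the carrier linked to glycine entry into the mitochondrion, and Slc25a37 (mitoferrin 1) brings in iron. Alad, Uros and Urod then act in the cytosol, and Cpox, Ppox and Fech finish the ring in the mitochondrion, where Fech inserts the iron. In people, loss of ALAS2 or SLC25A38 causes sideroblastic anemia and defects of the later enzymes cause porphyrias.

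By the GENCODE vM21 annotation of GRCm38 (mm10), Alas2 (ENSMUSG00000025270) lies on the X chromosome at chrX:150547375-150570638 on the plus strand, and Slc25a38 at chr9:120110374-120124504 on the plus strand. Slc25a37 lies at chr14:69241848-69285112, Alad at chr4:62509169-62519918, Urod at chr4:116989965-116994413, Uros at chr7:133686243-133710072 and Ppox at chr1:171275990-171281186, all on the minus strand. Cpox lies at chr16:58670292-58717636 on the plus strand. Slc25a37 overlaps the gene model Gm20236 on its own strand, and whether the counting divided reads between them is not given in the sources used here. Upstream windows from RefSeq (GRCm38.p6) were matched for 7 of the 9 members. The letters GATAA, read on both strands as GATAA or TTATC and known as the core that GATA factors bind, and CACCC, read as CACCC or GGGTG and known from Klf1 binding, were searched in 200 bases shortly upstream of the first transcribed base. The windows of Alas2, Slc25a38 and Cpox are shown, for the first enzyme, the carrier called lower in the double mutant, and the member whose window held both letter groups. Capitals mark the matches.
Alas2, chrX:150547167-150547366, plus strand: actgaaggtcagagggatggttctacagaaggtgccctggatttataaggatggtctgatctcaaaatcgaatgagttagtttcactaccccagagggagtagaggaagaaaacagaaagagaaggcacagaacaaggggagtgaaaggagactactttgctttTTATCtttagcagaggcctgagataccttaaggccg
Slc25a38, chr9:120110132-120110331, plus strand: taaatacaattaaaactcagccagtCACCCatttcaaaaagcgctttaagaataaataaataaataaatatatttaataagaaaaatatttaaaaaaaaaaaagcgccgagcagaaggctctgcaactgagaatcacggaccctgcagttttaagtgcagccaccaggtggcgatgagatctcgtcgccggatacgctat
Cpox, chr16:58669958-58670157, plus strand: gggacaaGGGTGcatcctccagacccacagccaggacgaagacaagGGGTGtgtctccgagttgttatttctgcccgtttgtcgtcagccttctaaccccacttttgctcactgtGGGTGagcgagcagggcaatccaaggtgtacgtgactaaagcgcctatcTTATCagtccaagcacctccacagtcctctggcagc
Alas2 held 1 GATAA match and no CACCC, Slc25a38 held 1 CACCC match and no GATAA, and Cpox held 1 GATAA and 3 CACCC matches. The windows of Alad, Urod and Ppox held neither, and those of Uros overlapped annotated exons and are not shown. Of 32851 windows of the same length, 19.3% held GATAA, 44.4% held CACCC and 6.98% held both, so a match is common among all genes.

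The 12 libraries held 32700 cells after 1 correction. The G12D T1 table contained 2897 cells, 51.3% of its 5648, that matched 95.2% of the cells of the G12D/E2-KO T1 table. Of them, 1494 were equal in every gene. In the matched cells Ezh2 stood at 20.9 CPM (counts per 1000000 UMIs), against 86.3 in the other 2751 G12D T1 cells. The later G12D/E2-KO libraries, which share no cells with them, had 25.3 and 22.4 CPM. The matched cells were therefore left in G12D/E2-KO T1 only. The 20.7 CPM of G12D/E2-KO T1 rests on nearly the same cells and is no separate check. No other pair of libraries shared a cell. Ezh2 read 103 to 133 CPM in WT, 27.7 to 34.6 in E2-KO, 81.7 to 103 in G12D and 20.7 to 25.3 in G12D/E2-KO, lower where the labels give a deletion but not 0. Each library had 12636998 to 23646292 UMIs. E2-KO T3 stood apart: it had the fewest UMIs per cell (median 3780.5), the most globin-high cells, and the most globin in its granulocyte-high cells (a median of 0.361% of UMIs, against 0.0426% to 0.153% elsewhere).

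Members were summed in 3 ways: over all cells, over early erythroid cells with at least 5 Car1 UMIs per 10000 (4746 Car1-positive cells), and over 2889 globin-high cells, with at least 500 UMIs of the 4 adult globin genes per 10000. The 770 cells in both gates were counted as globin-high, 431 cells lay within 1 of the Car1 limit and 174 within 100 of the globin limit. Of 15 erythroid markers, Car1 and the 4 globin genes define the gates and check nothing. The other 10 were also detected in both gates in every genotype, as were the late granulocyte markers, so their levels say more: Gata1 read 105 to 167 CPM in Car1-positive cells and 98.5 to 218 in globin-high cells against 6.05 to 27.0 in all remaining cells, and Klf1 184 to 402 and 232 to 662 against 6.31 to 43.9. Car1-positive cells made up 16.9% to 19.2% of WT libraries, 14.3% to 22.9% of E2-KO, 7.57% to 18.3% of G12D and 6.54% to 13.6% of G12D/E2-KO. Globin-high cells made up 5.87% to 10.9% of WT, 9.82% to 23.3% of E2-KO, 3.45% to 7.12% of G12D and 4.59% to 8.44% of G12D/E2-KO. These shares move sums over all cells, in which fewer erythroid cells and less RNA per cell cannot be told apart.

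As a share of UMIs, all 9 members stood higher in globin-high than in Car1-positive cells in 12 of 12 libraries. The amounts differed widely between genes. Globin-high cells were shallower, with a median of 3053.5 to 4636 UMIs per cell against 6050 to 15030 in Car1-positive cells. A higher share therefore does not give more UMIs of a gene per cell, which was not computed. Alas2 had the steepest difference, with a median ratio of CPM of 102 (range 51.5 to 185). Slc25a37, the iron importer, followed with a median ratio of 14.3 and Fech, the last enzyme, with 5.88. Ppox, Urod, Uros and Alad had median ratios of 3.36, 3.34, 2.96 and 2.71, and Cpox of 1.93. Slc25a38, the glycine carrier, had the flattest difference, 1.39 (range 1.17 to 2.05). These ratios are descriptions without a test, since globin was what defined the gate, and globin UMIs fill much of the total in globin-high cells. With globin UMIs left out of the totals, the median ratios were 182 for Alas2, 25.3 for Slc25a37, 10.4 for Fech and 2.75 for Slc25a38. Alas1, the housekeeping counterpart of Alas2, had a median ratio of 0.772, with globin-high cells above Car1-positive cells in 4 of 12 libraries. With globin UMIs left out its direction turned, to a median ratio of 1.51 and 8 of 12 libraries, on 3 to 9 UMIs per library in globin-high cells.

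Along globin accumulation, as shares of non-globin UMIs, the means of all 9 members had their largest fold step first and were highest last. They differed in the size of the climb. The steps were Car1-positive cells below 500 globin UMIs per 10000 (4746 cells), then cells at 500 to 1000 (282), 1000 to 2000 (300), 2000 to 4000 (394) and at least 4000 (1913), with CPM computed over non-globin UMIs. Means over the 12 libraries for Alas2 were 12.3, 303, 677, 1525 and 5566 CPM at the 5 steps. Slc25a37 had 62.4, 587, 784, 1452 and 3333 CPM. Both means went on climbing to the last step. Slc25a38 had 64.0, 142, 134, 173 and 247 CPM, flatter from the second step on. Cpox had 274, 680, 763, 998 and 1230 CPM, also flatter from there. Fech had 101, 359, 472, 888 and 2252 CPM, and went on climbing to the last step too. Urod had 81.3, 199, 285, 419 and 982 CPM, and Uros had 37.7, 121, 132, 212 and 278 CPM. Ppox had 26.8, 75.8, 116, 155 and 275 CPM. In granulocyte-high cells of the same libraries, which should lack Alas2, Alas2 read 0.860 to 4.88 CPM, below the 6.40 to 19.6 CPM of Car1-positive cells.

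**Figure D1:**
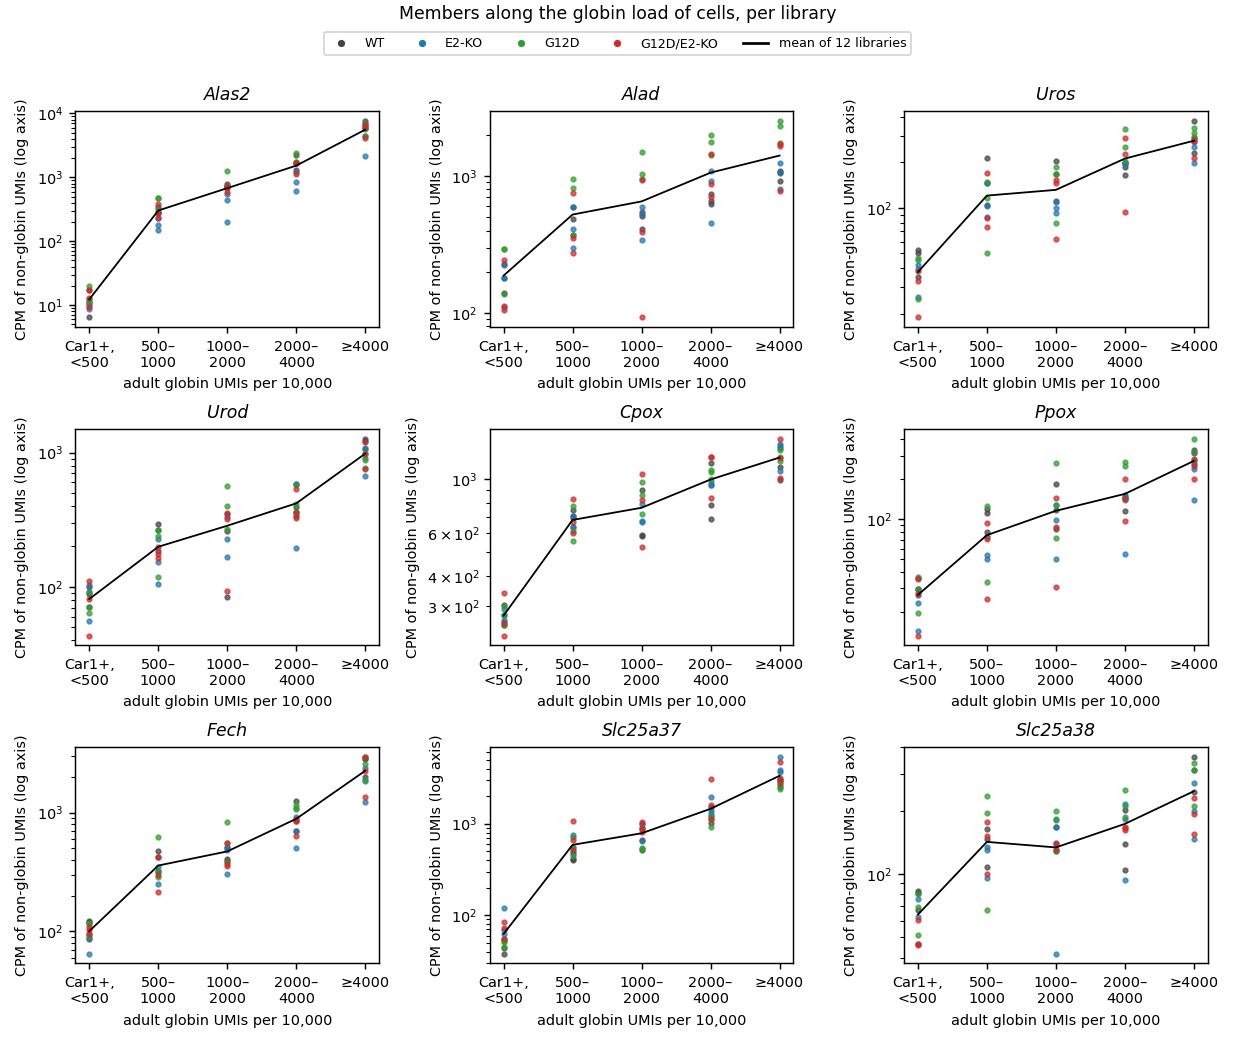
Level of each of the 9 members along globin accumulation, in CPM of non-globin UMIs on a log axis, at the 5 steps of globin UMIs per 10000 on the horizontal axis. Each point is 1 library, coloured by genotype, and the line joins the means of the 12 libraries. Alas2 went from 12.3 to 5566 CPM as the mean of 12 libraries and Slc25a38 from 64.0 to 247.

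Slc25a38 was the member with the clearest genotype difference: it was lower in G12D/E2-KO than in WT over all cells and in Car1-positive cells. Over all cells, WT libraries had 42.6, 37.0 and 36.5 CPM at T1, T2 and T3, and G12D/E2-KO had 24.6, 20.1 and 20.3. Every G12D/E2-KO library lay below every WT library. E2-KO libraries had 32.4, 41.1 and 27.1 CPM and G12D libraries 29.7, 35.2 and 19.4, so that G12D too lay below WT at all 3 times and E2-KO overlapped it. Slc25a38 fell by 0.89 on the log2 scale (SE 0.17) in G12D/E2-KO, with an adjusted p of 0.0200 by edgeR's quasi-likelihood test. It was the 1 member of 9 called in that comparison, in which 5.69% of 12848 genes were called (1.96% were called lower). By DESeq2, for which no share over all genes was counted, 3 members were called (Slc25a38, Uros and Ppox). The call held in all 8 alternatives (with both tables as deposited the adjusted p was 0.0318, without G12D/E2-KO T1 0.0213, and without G12D T1 0.0403). It was lost without WT T1 (adjusted p = 0.0711), WT T3 (0.143) or G12D/E2-KO T2 (0.109). The lower share of Car1-positive cells in G12D/E2-KO, given above, stands beside this value, and its part in this value was not tested.

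Within Car1-positive cells, Slc25a38 had 82.5, 80.3 and 66.8 CPM in WT and 59.7, 46.2 and 45.6 CPM in G12D/E2-KO. The groups again did not overlap. E2-KO cells had 62.1, 75.5 and 45.9 CPM, and G12D cells 79.6, 69.4 and 51.2, both overlapping WT. The log2 change in G12D/E2-KO was -0.56 (SE 0.14, adjusted p = 0.0297 by edgeR), 1 of 2 members called lower, where 6.45% of 9981 genes were called (2.42% lower). The adjusted p was 0.0322 with the tables as deposited. The call was lost without WT T1 (adjusted p = 0.0887), WT T2 (0.0918), WT T3 (0.191), G12D T2 (0.0507) or G12D/E2-KO T2 (0.140), without the time point in the model (0.0907), with the Car1 limit at 10 (0.164), and with globin-high cells kept in the gate (0.0657). In globin-high cells Slc25a38 had 112, 103 and 90.5 CPM in WT and 114, 83.1 and 59.1 in G12D/E2-KO, which overlapped. In globin-high cells as a whole, E2-KO had 83.6, 106 and 53.6 CPM and G12D 148, 138 and 105, the latter with all but its T3 library above WT. The log2 difference of G12D/E2-KO in globin-high cells was -0.21 (SE 0.19, adjusted p = 0.676), on 24 to 186 UMIs per library.

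Uros, which closes the ring of the cytosolic intermediate, was the other member called in Car1-positive cells. It had 49.9, 52.5 and 34.7 CPM in WT and 37.8, 32.9 and 18.9 CPM in G12D/E2-KO. G12D/E2-KO was lower at each time point, while its T1 value lay above WT T3. E2-KO had 39.4, 41.9 and 25.8 CPM and G12D 45.1, 46.4 and 24.9. Uros fell by 0.60 on the log2 scale (SE 0.15, adjusted p = 0.0243 by edgeR; 0.0264 with the tables as deposited). The call was the less stable of the pair: it was lost without WT T1 (adjusted p = 0.0547), WT T2 (0.0792), WT T3 (0.171), G12D/E2-KO T2 (0.0749) or G12D/E2-KO T3 (0.0603). It was also lost without the time point in the model (adjusted p = 0.246), in a fit of both genotypes alone (0.0585), with Xist as a covariate (0.0599), with the Car1 limit at 10 (0.147), with globin-high cells kept (0.280) and with the globin limit at 1000 (0.0519). Over all cells Uros had 28.2, 27.9 and 23.7 CPM in WT and 17.6, 12.6 and 10.6 in G12D/E2-KO, without overlap (log2 difference -1.02, SE 0.27, adjusted p = 0.0540 by edgeR). That difference passed the threshold by DESeq2 (adjusted p = 0.00531), in a fit of both genotypes alone (0.0452), and without E2-KO T3 (0.0331), G12D T2 (0.0346), G12D T3 (0.0292) or G12D/E2-KO T1 (0.0324). E2-KO had 23.0, 25.5 and 25.6 CPM and G12D 18.8, 23.96 and 9.44 over all cells. In globin-high cells Uros had 108, 104 and 116 CPM in WT and 92.9, 89.7 and 78.9 in E2-KO, with 143, 133 and 103 in G12D and 142, 89.0 and 73.9 in G12D/E2-KO. There E2-KO lay wholly below WT (log2 difference -0.20, adjusted p = 0.658) and the other mutants overlapped it. With globin UMIs left out of the totals, E2-KO overlapped WT at the last globin step. Of other cell types in the gate, the 8 late granulocyte markers summed to 4715 to 9092 CPM in WT and 1623 to 6534 CPM in G12D/E2-KO Car1-positive cells, with all 8 detected in both. The 5 GMP and early granulocyte markers lay wholly above WT in G12D/E2-KO, at 262 to 439 CPM against 182 to 228, as did the 5 basophil and mast cell markers, at 6.85 to 33.0 against 1.94 to 6.45. The 10 erythroid markers that define no gate summed to 3570 to 4422 CPM in WT and 2359 to 3541 in G12D/E2-KO Car1-positive cells, wholly below WT there too. The median depth of a Car1-positive cell was 12354 to 15030 UMIs in WT and 6050 to 10322 in G12D/E2-KO. The part of these in the Uros and Slc25a38 values was not tested.

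**Figure D2:**
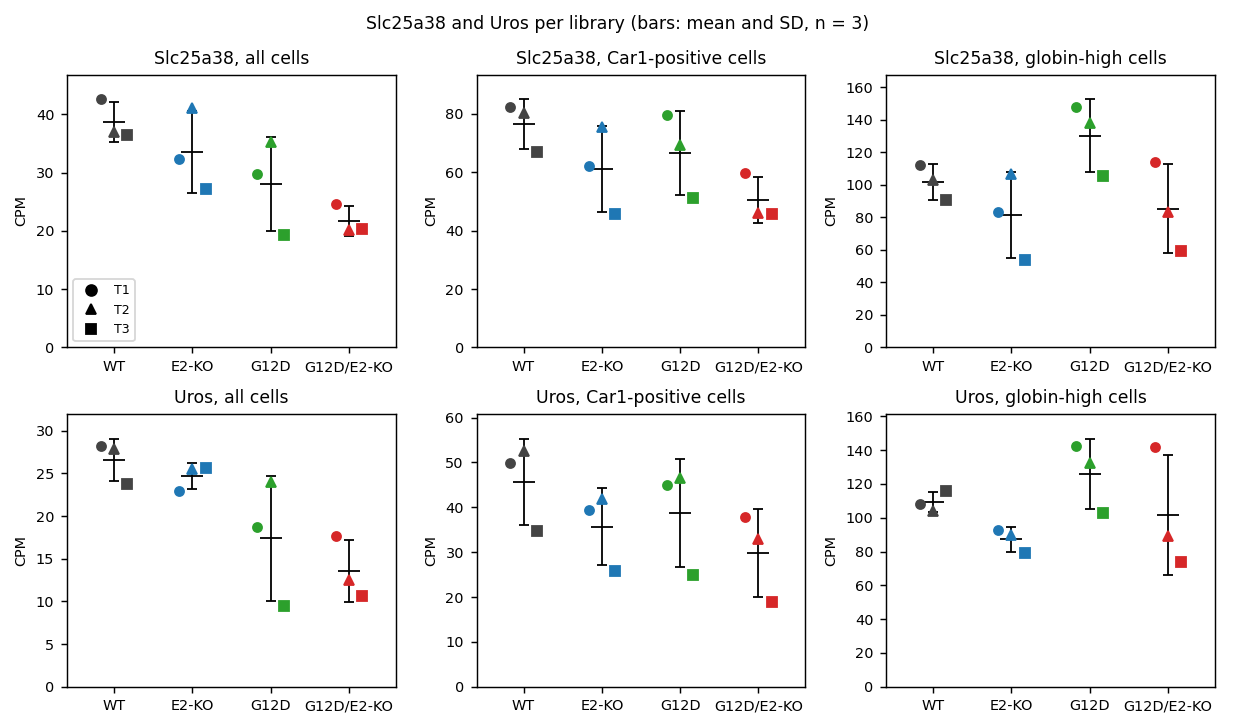
Slc25a38 and Uros in CPM over all cells, in Car1-positive and in globin-high cells, 1 point per library, with the mean and SD of the 3 libraries of each genotype as bars. All 3 G12D/E2-KO points of Slc25a38 lie below all 3 WT points over all cells and in Car1-positive cells, while Uros in Car1-positive cells overlaps (37.8 in G12D/E2-KO T1 against 34.7 in WT T3).

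Slc25a37, the iron importer, had its highest values in libraries of Ezh2-deleted mice, E2-KO and G12D/E2-KO, without passing the threshold in the reported edgeR fit. Over all cells WT had 68.0, 82.1 and 66.0 CPM, and E2-KO had 115, 98.2 and 320. All 3 E2-KO libraries lay above WT, with T3 far above the others. The log2 difference was 1.22 (SE 0.46, adjusted p = 0.247 by edgeR) and did not pass the threshold. G12D had 71.7, 54.9 and 44.1 CPM and G12D/E2-KO 93.3, 74.3 and 83.8, both overlapping WT. In Car1-positive cells WT had 55.4, 43.7 and 38.0 CPM, E2-KO 68.7, 61.8 and 118, G12D 51.3, 45.0 and 52.6, and G12D/E2-KO 83.9, 71.6 and 55.0. E2-KO lay wholly above WT, and the lowest G12D/E2-KO value lay just below the highest WT value. In E2-KO the log2 difference was 0.87 (SE 0.26, adjusted p = 0.142), while for G12D/E2-KO it was 0.67 (SE 0.26, adjusted p = 0.158), both by edgeR. The E2-KO difference passed the threshold by DESeq2 (adjusted p = 0.0175), without a filter on low counts (3.41e-06) and with Xist as a covariate (0.0391), which makes 3 of 13 alternatives. The G12D/E2-KO difference passed it without a filter (0.00200), in a fit of both genotypes alone (0.0162) and with Xist (0.0281), and also without E2-KO T3 (0.00964) or G12D/E2-KO T3 (0.0255). The fits with Xist and without G12D/E2-KO T3 are not separate evidence, since that library was the only T3 library without high Xist.

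In globin-high cells Slc25a37 had 734, 722 and 668 CPM in WT. E2-KO cells had 943, 896 and 1442 CPM, and G12D/E2-KO cells 984, 827 and 1401. G12D cells had 948, 652 and 739 CPM. With globin UMIs in the totals, the 6 libraries with Ezh2 deleted all lay above the 3 WT libraries, and G12D T1 reached the same height. In E2-KO the log2 difference was 0.71 (SE 0.25, adjusted p = 0.192), while for G12D/E2-KO it was 0.65 (SE 0.25, adjusted p = 0.246), neither called by edgeR or by DESeq2. The E2-KO difference passed the threshold there without a filter (adjusted p = 0.0126), in a fit of both genotypes alone (0.0430) and with Xist (0.0392), 3 of 11 alternatives. These values also depended on single libraries. In E2-KO Car1-positive cells the log2 difference was 0.45 (adjusted p = 0.25) without E2-KO T3, the library with the lowest depth, and 0.84 (adjusted p = 0.0328) without G12D/E2-KO T3. In E2-KO globin-high cells it was 0.54 (adjusted p = 0.730) without E2-KO T3, 0.46 (0.585) without WT T3, 1.02 (0.0456) without WT T2 and 0.76 (0.0336) without G12D/E2-KO T3. In granulocyte-high cells Slc25a37 read 14.4 to 21.7 CPM in WT, 24.8 to 50.7 in E2-KO, 13.9 to 17.0 in G12D and 22.1 to 28.7 in G12D/E2-KO, so that the libraries with Ezh2 deleted lay above WT in cells of another lineage too. Markers of other cell types stood apart in E2-KO as well: the late granulocyte markers lay wholly below WT in Car1-positive cells (2025 to 3437 CPM against 4715 to 9092) and in globin-high cells (1832 to 3427 against 5965 to 12446). The 6 B lymphoid markers lay wholly above WT, at 93.5 to 136 against 11.8 to 91.6 and at 133 to 144 against 47.6 to 78.2 in the same gates. In globin-high cells the promonocyte (7.96 to 15.4 against 18.8 to 48.0) and macrophage markers (25.2 to 42.8 against 77.4 to 154) lay wholly below it. The E2-KO Car1-positive cells were also shallower, with a median of 8577 to 12041 UMIs against 12354 to 15030 in WT. The part of these in the Slc25a37 values was not tested. At the last globin step the means were 2837 ± 284 CPM of non-globin UMIs in WT and 4290 ± 930 in E2-KO, with 2632 ± 221 in G12D and 3574 ± 1033 in G12D/E2-KO (SD, n = 3 each).

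Alas2, the first enzyme, was not called between genotypes in any cell group by edgeR or by DESeq2. Over all cells it had 61.3, 127 and 69.8 CPM in WT and 81.1, 76.3 and 96.9 in E2-KO, with 103, 56.3 and 28.5 in G12D and 107, 45.2 and 45.4 in G12D/E2-KO. The genotypes overlapped, and WT alone covered a range from 61.3 to 127. In Car1-positive cells it had 6.40 to 17.1 CPM in WT, 8.81 to 12.3 in E2-KO, 11.3 to 19.6 in G12D and 9.43 to 17.1 in G12D/E2-KO, on 25 to 109 UMIs per library. In globin-high cells it had 1269, 1574 and 1184 CPM in WT and 953, 1114 and 521 in E2-KO. Here E2-KO lay wholly below WT, with E2-KO T3 lowest (log2 difference -0.56, SE 0.38, adjusted p = 0.540). G12D had 1955, 1190 and 1157 CPM and G12D/E2-KO 1614, 882 and 1591, on both sides of WT. Alas2 is X-linked, and Xist was at 1296 to 1357 CPM in the T3 libraries of WT, E2-KO and G12D and at 0.609 CPM or less in the other 9 libraries, so sex and time cannot be told apart within those genotypes.

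**Figure D3:**
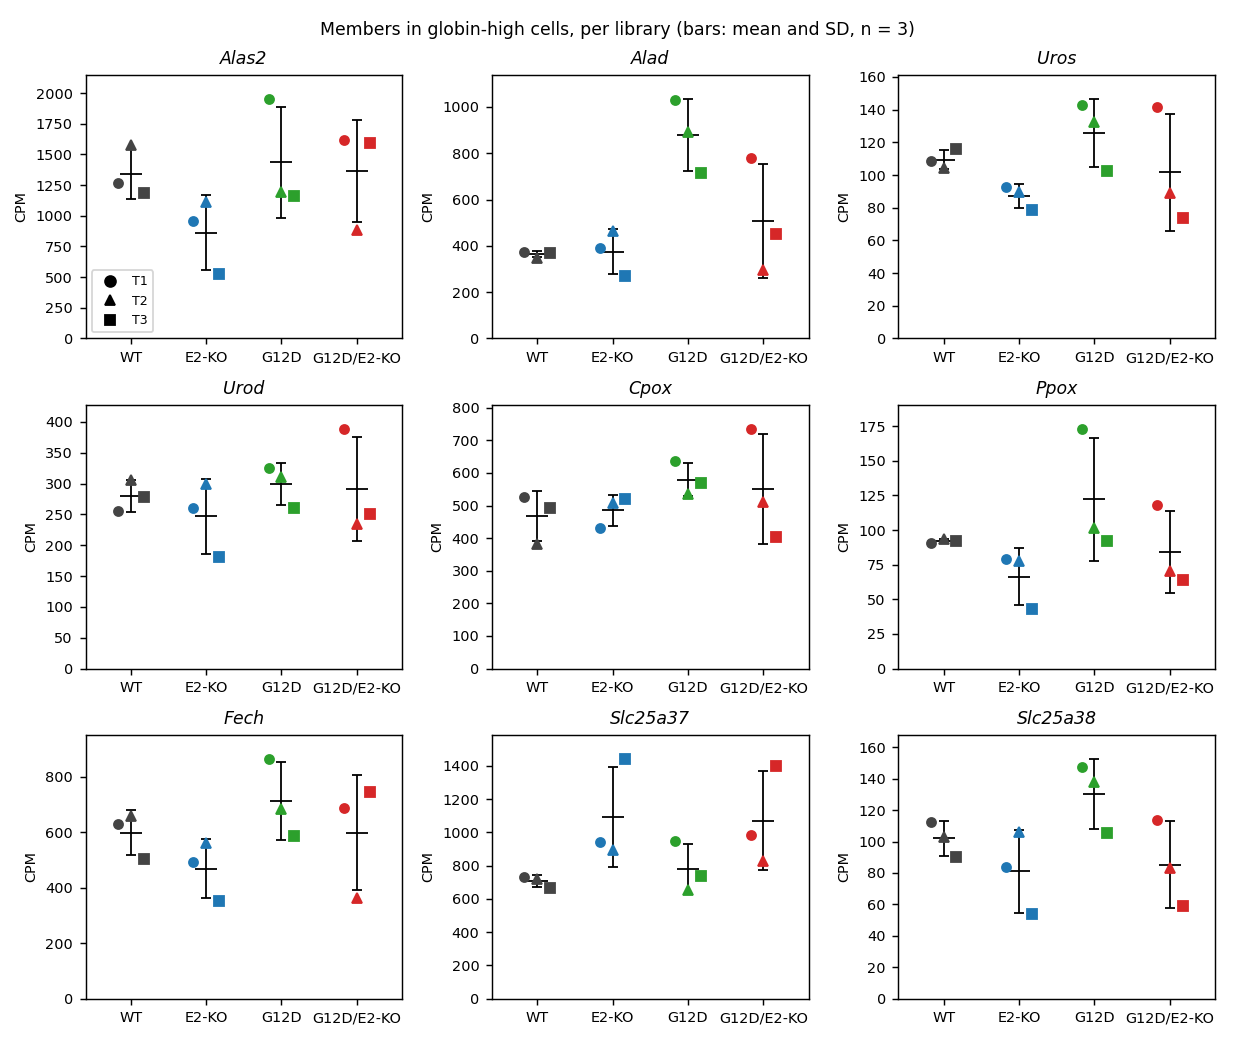
CPM of each of the 9 members in globin-high cells, 1 point per library and 1 panel per gene, with the mean and SD of the 3 libraries of each genotype as bars. The 3 G12D points of Alad (716 to 1029 CPM) lie above the 3 WT points (349 to 374), and the other mutants overlap WT in most panels.

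Alad, which condenses 5-aminolevulinate into porphobilinogen, stood highest in G12D globin-high cells. It had 374, 349 and 368 CPM in WT and 1029, 893 and 716 in G12D, with no overlap. E2-KO had 389, 462 and 271 CPM, around WT. G12D/E2-KO had 779, 296 and 451 CPM, which spread across the WT and G12D values. The log2 difference of G12D was 1.12 (SE 0.24, adjusted p = 0.0759 by edgeR), just outside the threshold, in a comparison where 0.143% of 5597 genes were called. DESeq2 (adjusted p = 0.0147), a fit without a filter on low counts (8.41e-05), a fit of both genotypes alone (1.48e-07) and a fit with Xist (0.0264) passed it. With the tables as deposited the log2 difference was 1.05 (adjusted p = 0.155), and without G12D T1 it was 1.09 (adjusted p = 0.621). Leaving out each library in turn gave 0.95 to 1.25, past the threshold without E2-KO T2 or any 1 of the 3 G12D/E2-KO libraries. In the same cells the 6 B lymphoid markers summed to 27.5 to 36.8 CPM in G12D against 47.6 to 78.2 in WT, and the 5 macrophage markers to 40.7 to 57.1 against 77.4 to 154, both wholly below WT. Their part in the Alad value was not tested.

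Over the 3 later globin steps the G12D libraries lay wholly above WT for Alad, and before them G12D T3 lay just below every WT library. In Car1-positive cells WT had 180, 226 and 141 CPM, G12D 291, 295 and 137, E2-KO 181, 225 and 110, and G12D/E2-KO 241, 106 and 113, all overlapping. At 500 to 1000 globin UMIs per 10000, per non-globin UMI, WT had 596, 483 and 373 CPM and G12D 945, 821 and 370. Here, as in Car1-positive cells, G12D T1 and T2 lay above every WT library and T3 just below every WT library. Per non-globin UMI, WT had 489 ± 69.0 CPM at 1000 to 2000 globin UMIs per 10000, 672 ± 57.7 at 2000 to 4000 and 1020 ± 82.4 at 4000 or more (SD, n = 3). G12D had 1159 ± 291, 1729 ± 290 and 2201 ± 406 at the same steps. All 3 G12D libraries lay above all 3 WT libraries at each of these 3 steps, with 945 to 1490 against 413 to 547 CPM at the first of them and 1746 to 2526 against 927 to 1082 at the last. E2-KO reached 1037 ± 217 CPM and G12D/E2-KO 1376 ± 523 CPM at the last step. These steps were described without a test, and the first 2 of the 3 rest on 7 to 85 cells per library.

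**Figure D4:**
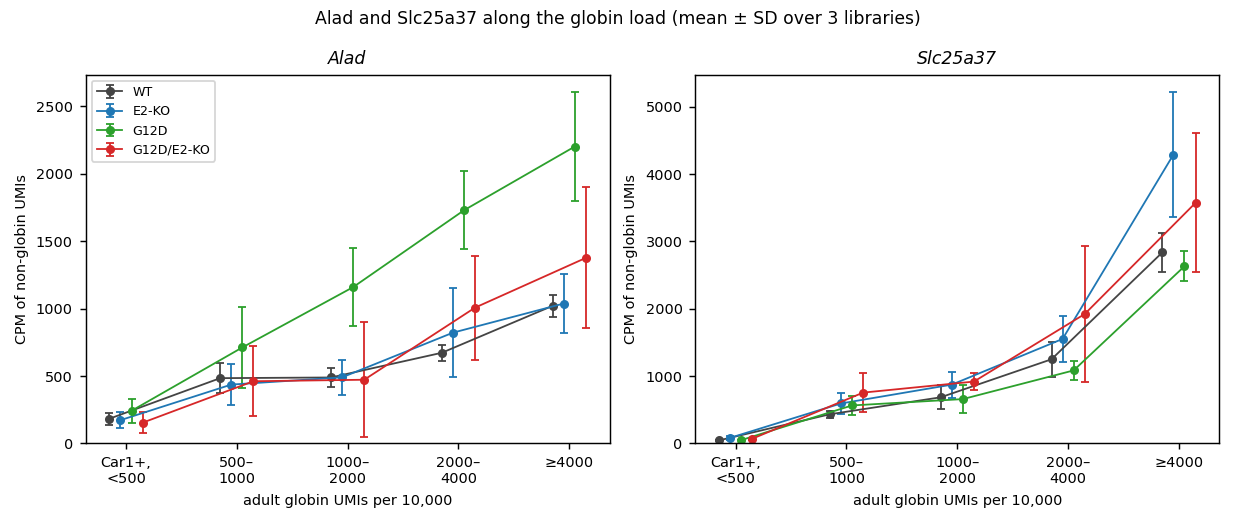
Alad and Slc25a37 along globin accumulation in CPM of non-globin UMIs, by step of globin UMIs per 10000 on the horizontal axis. Points and bars are the mean and SD of the 3 libraries of a genotype. At the last step Alad is at 2201 ± 406 CPM in G12D and 1020 ± 82.4 in WT, and Slc25a37 at 4290 ± 930 in E2-KO and 2837 ± 284 in WT.

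Urod overlapped between each mutant and WT in both gates. Urod, which removes carboxyl groups from uroporphyrinogen, had 88.9, 99.8 and 71.0 CPM in WT and 91.2, 103 and 55.0 in E2-KO, with 70.9, 91.8 and 63.5 in G12D and 110, 81.5 and 43.4 in G12D/E2-KO Car1-positive cells. In globin-high cells Urod had 255, 306 and 279 CPM in WT and 261, 300 and 181 in E2-KO, with 325, 311 and 260 in G12D and 389, 234 and 251 in G12D/E2-KO. Over all cells Urod had 56.4, 67.5 and 53.5 CPM in WT and 63.5, 72.8 and 57.4 in E2-KO, with 40.6, 57.5 and 26.6 in G12D and 52.4, 41.2 and 29.2 in G12D/E2-KO, the last without overlap with WT (log2 difference -0.60, adjusted p = 0.123).

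Of the mitochondrial enzymes, Cpox, Ppox and Fech, none was called in any genotype by the reported edgeR fit, and DESeq2 called Ppox in G12D/E2-KO over all cells. Cpox, which oxidizes coproporphyrinogen, over all cells had 142, 122 and 137 CPM in WT and 99.7, 80.1 and 69.6 in G12D/E2-KO, a gap without overlap (log2 difference -0.73, adjusted p = 0.173). E2-KO had 122, 138 and 191 CPM and G12D 84.6, 126 and 56.8 over all cells, both overlapping WT. Within the gates Cpox overlapped between G12D/E2-KO and WT, and Car1-positive cells had 274, 301 and 250 CPM in WT and 257, 261 and 289 in E2-KO, with 273, 298 and 250 in G12D and 337, 254 and 226 in G12D/E2-KO. In globin-high cells Cpox had 527, 381 and 493 CPM in WT, 431, 506 and 520 in E2-KO, 736, 512 and 404 in G12D/E2-KO, and 636, 535 and 568 in G12D, the last wholly above WT. Per non-globin UMI, G12D overlapped WT at every globin step, with 1187 to 1317 against 992 to 1341 CPM at the last. 

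Ppox, which oxidizes protoporphyrinogen, was low in G12D/E2-KO over all cells and in E2-KO globin-high cells, in neither case past the threshold in the reported edgeR fit. Over all cells it had 23.8, 26.0 and 22.4 CPM in WT and 19.7, 15.2 and 9.98 in G12D/E2-KO, without overlap (log2 difference -0.78, SE 0.21, adjusted p = 0.0512 by edgeR). That difference passed the threshold by DESeq2 (adjusted p = 0.0136), without a filter on low counts (0.0372), and without E2-KO T3 (0.0476) or G12D/E2-KO T1 (0.0316), and it missed it in the other 6 alternatives and with any of the other 10 libraries left out. E2-KO had 21.6, 19.3 and 15.7 CPM, also wholly below WT (adjusted p = 0.372), and G12D 23.4, 21.5 and 12.5. In globin-high cells Ppox had 90.5, 93.7 and 92.3 CPM in WT and 78.9, 77.4 and 42.8 in E2-KO, again without overlap (log2 difference -0.42, SE 0.21, adjusted p = 0.363). With globin UMIs left out of the totals, E2-KO overlapped WT at the last globin step. G12D had 173, 101 and 92.1 CPM and G12D/E2-KO 118, 70.2 and 64.0, both overlapping WT. In Car1-positive cells Ppox had 29.6, 35.6 and 26.8 CPM in WT and 29.3, 23.1 and 14.3 in E2-KO, with 36.3, 29.8 and 19.5 in G12D and 35.1, 27.7 and 13.2 in G12D/E2-KO, all overlapping.

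Fech, which inserts the iron and lies on chromosome 18, overlapped between genotypes in both gates. In Car1-positive cells it had 119, 121 and 86.0 CPM in WT and 87.9, 94.6 and 64.7 in E2-KO (log2 difference -0.37, SE 0.12, adjusted p = 0.142). G12D had 116, 117 and 90.6 CPM and G12D/E2-KO 108, 95.5 and 102. In globin-high cells Fech had 631, 659 and 506 CPM in WT and 493, 562 and 352 in E2-KO, with 865, 686 and 587 in G12D and 689, 363 and 746 in G12D/E2-KO. Over all cells Fech had 81.6, 96.5 and 71.2 CPM in WT and 75.2, 80.8 and 90.1 in E2-KO, with 73.0, 79.3 and 37.5 in G12D and 68.9, 43.5 and 57.1 in G12D/E2-KO, the last wholly below WT (log2 difference -0.61, adjusted p = 0.186).

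Counted over the 9 members, the calls by edgeR were in the double mutant, which also had the most calls over all genes in 2 of the 3 cell groups. In E2-KO, 0 members were called over all cells, where 1.6% of genes were called, and 0 in Car1-positive cells and 0 in globin-high cells, where 2.3% and 2.52% of genes were. At an unadjusted p under 0.05 by edgeR the counts were 1, 5 and 1, beside 2066 of 12848, 1396 of 9981 and 802 of 5597 genes, and DESeq2 called 0, 1 and 0. In G12D, 0 members were called in all 3 cell groups, against 0.109%, 0.15% and 0.143% of genes, with 3, 0 and 1 at an unadjusted p under 0.05 (1519, 500 and 382 of all genes tested) and 0, 0 and 1 called by DESeq2. In G12D/E2-KO, 1 member was called over all cells, 2 in Car1-positive cells and 0 in globin-high cells, where 5.69%, 6.45% and 2.07% of genes were called. At an unadjusted p under 0.05 by edgeR there were 6, 3 and 2 members, beside 3363, 2312 and 782 of all genes tested, and DESeq2 called 3, 2 and 0. No share over all genes was counted for DESeq2, in these or in the other comparisons.

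The median log2 difference of the 9 members in G12D/E2-KO was -0.61 over all cells, beside 0.01 over all genes tested. It was -0.16 in Car1-positive cells and 0.12 in globin-high cells. Members whose 3 G12D/E2-KO libraries all lay below all 3 WT libraries numbered 6 over all cells (Uros, Urod, Cpox, Ppox, Fech and Slc25a38), where 10.5% of genes did so, 1 in Car1-positive cells (Slc25a38), where 14.4% did, and 0 in globin-high cells, where 8.13% did. Wholly above WT were 0, 0 and 1 members (Slc25a37 in globin-high cells), where 14.8%, 11.9% and 6.22% of genes were. In G12D/E2-KO, 6 of 9 stood above that background over all cells, and the counts in the gates were near it. With globin UMIs left out of the totals, Slc25a37 of G12D/E2-KO overlapped WT at the last globin step.

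For E2-KO, 1 member lay wholly above WT in each cell group, Slc25a37 each time, where 15.7%, 10.3% and 6.06% of genes did over all cells, in Car1-positive and in globin-high cells. Wholly below WT were Ppox over all cells (9.99% of genes), 0 members in Car1-positive cells (11.3%) and 3 in globin-high cells, Alas2, Uros and Ppox (13.9%). These totals include globin UMIs. Per non-globin UMI at the last globin step, E2-KO lay wholly below WT for Alas2 (2124 to 5820 against 5935 to 7670 CPM). It overlapped WT there for Uros (197 to 272 against 229 to 377) and Ppox (139 to 276 against 263 to 333). For G12D, Alad and Cpox lay wholly above WT in globin-high cells (10.6% of genes), and 0 members did over all cells (7.27%) or in Car1-positive cells (4.19%). With globin UMIs left out of the totals, Alad lay wholly above WT at the last globin step too, and Cpox overlapped it. Slc25a38 lay wholly below WT over all cells (9.49%), and 0 members did in Car1-positive cells (7.64%) or globin-high cells (2.86%).

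**Figure D5:**
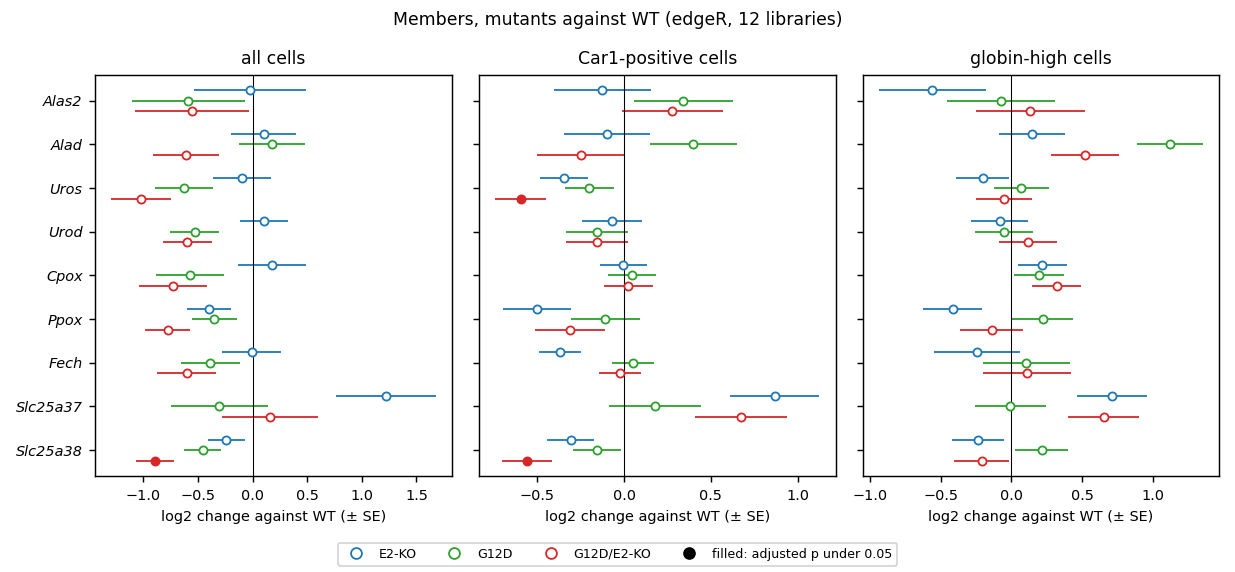
Log2 differences of the 9 members against WT by edgeR, with bars of 1 SE, for E2-KO, G12D and G12D/E2-KO in all cells, Car1-positive cells and globin-high cells. Filled symbols passed an adjusted p of 0.05: Slc25a38 in G12D/E2-KO over all cells (-0.89) and Slc25a38 (-0.56) and Uros (-0.60) in Car1-positive cells.

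Whether loss of Ezh2 acted differently with and without NRas G12D was tested as an interaction. No member was called in any cell group by edgeR or by DESeq2, where 0.0934% of genes were called over all cells, 0.12% in Car1-positive cells and 0.232% in globin-high cells. At an unadjusted p under 0.05 there were 0 members over all cells, 0 in Car1-positive cells and 1 in globin-high cells, where 206 of 5597 genes had one. That member was Alad, with an interaction of -0.75 (SE 0.33, unadjusted p = 0.0356, adjusted p = 0.999). The comparisons of E2-KO, G12D and G12D/E2-KO share the same WT libraries.

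Between time points, most members stood lowest at T3 in Car1-positive cells, without passing the threshold in the reported edgeR fit. Against T1, and over the 4 genotypes, the log2 differences at T3 were -0.70 for Uros (SE 0.13, adjusted p = 0.0792), -0.79 for Ppox (SE 0.18, adjusted p = 0.229), -0.61 for Urod (adjusted p = 0.245), -0.81 for Alad (SE 0.22, adjusted p = 0.294) and -0.41 for Slc25a38 (adjusted p = 0.286). All 9 members had negative estimates, with a median of -0.60 beside 0.00 over all genes tested. In that fit 0 members were called, where 0.02% of genes were, 7 members had an unadjusted p under 0.05, beside 1115 of 9981 genes, and DESeq2 called 3 (Alad, Uros and Ppox). Without a filter on low counts, Alad, Uros, Urod and Ppox passed the threshold by edgeR. Uros also passed it with the Car1 limit at 10. With Xist as a covariate the T3 term rested on G12D/E2-KO T3 alone, the only T3 library without high Xist, so no calls are given. Over the alternatives, that fit included, and libraries left out, Urod ran from -1.19 to -0.42 and Ppox from -1.42 to -0.61. With single libraries left out only, Urod ran from -0.73 to -0.42 and Ppox from -1.03 to -0.61. Uros, Urod, Ppox and Slc25a38 stood lowest at T3 in each of the 4 genotypes. So did the sum of the 10 erythroid markers that define no gate, in the same cells. That sum was 4422, 4024 and 3570 CPM at T1, T2 and T3 in WT and 3324, 3888 and 2837 in E2-KO. G12D had 3568, 3739 and 2789 CPM and G12D/E2-KO 3541, 2809 and 2359. The part of these sums in the differences at T3 was not tested. Xist was high at T3 in 3 of the 4 genotypes and at 0.609 CPM or less at T1, so that sex and time cannot be told apart within those 3 genotypes. In G12D/E2-KO Xist was at 0.314 CPM at T1 and 0.130 at T3, and Uros, Urod, Ppox and Slc25a38 stood lowest at T3 there too. In all cells and globin-high cells 0 members were called at T3 by edgeR or DESeq2, against 0% and 0.0536% of genes, with 3 and 2 at an unadjusted p under 0.05 (1677 and 522 of all genes tested). T2 against T1 gave 0 calls of members in all 3 cell groups by edgeR and by DESeq2, with 0 at an unadjusted p under 0.05, where 0% of genes were called by edgeR.

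Of 25 further genes of the heme pathway, 23 had a column and were tested in Car1-positive cells; Flvcr1 and Flvcr2 were not analysed here. In E2-KO, 1 rose and 0 fell, where 2.3% of all genes were called, and the gene that rose was Fdx1, a ferredoxin that hands on electrons in the mitochondrion. Fdx1 had 57.3, 53.0 and 43.3 CPM in WT and 78.2, 101 and 78.7 in E2-KO, without overlap (log2 change 0.78, SE 0.13, adjusted p = 0.00215 by edgeR). The call held in all 13 alternatives and with each library left out. Fdx1 had 66.6, 63.0 and 60.0 CPM in G12D/E2-KO, also wholly above WT (log2 difference 0.36, adjusted p = 0.118), and 57.6, 60.8 and 54.8 in G12D, which overlapped WT. The late granulocyte markers in Car1-positive cells summed to 2025 to 3437 CPM in E2-KO, wholly below the 4715 to 9092 CPM of WT, and the B lymphoid markers to 93.5 to 136 CPM, wholly above the 11.8 to 91.6 of WT. The median depth of these cells was 12041, 10676 and 8577 UMIs in E2-KO, wholly below the 12354, 13368 and 15030 of WT. The part of these in the Fdx1 value was not tested. In G12D, 0 of 23 were called by edgeR and by DESeq2, where 0.15% of all genes were called by edgeR. At an unadjusted p under 0.05 by edgeR there were 3, beside 500 of 9981 genes. Over all cells, where shares of erythroid cells enter, 1 of the 23 rose and 8 fell in G12D/E2-KO by edgeR, and 3 of 13 iron genes fell, where 5.69% of all genes were called (1.96% lower).

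In G12D/E2-KO Car1-positive cells, 0 of the 23 rose and 4 fell by edgeR, where 6.45% of all genes were called (2.42% lower), and DESeq2 gave the same counts. Tmem14c, which moves protoporphyrinogen through the inner mitochondrial membrane, had 1106, 985 and 706 CPM in WT and 771, 614 and 464 in G12D/E2-KO (log2 change -0.55, SE 0.12, adjusted p = 0.0125). The groups overlapped, with G12D/E2-KO lower at each time point. The call was lost without WT T1 (adjusted p = 0.0880) or WT T3 (0.0879), without the time point in the model (0.157), with the Car1 limit at 10 (0.0505) and with globin-high cells kept (0.104). Blvra, a biliverdin reductase, had 50.8, 45.8 and 35.7 CPM in WT and 25.1, 22.9 and 27.7 in G12D/E2-KO, without overlap (log2 change -0.74, adjusted p = 0.0207). That call was lost without WT T1 (adjusted p = 0.129), WT T3 (0.100), G12D/E2-KO T1 (0.0641) or G12D/E2-KO T2 (0.122). Blvrb, the other biliverdin reductase, had 988, 966 and 759 CPM in WT and 797, 637 and 441 in G12D/E2-KO (log2 change -0.51, adjusted p = 0.0307). Hebp1, a heme-binding protein, had 267, 256 and 181 CPM in WT and 195, 180 and 81.4 in G12D/E2-KO (log2 change -0.63, adjusted p = 0.0327). Blvrb and Hebp1 were lower at each time point with overlapping groups, and their calls were lost when any of 7 and 5 libraries respectively was left out. Both were also lost without the time point in the model (adjusted p = 0.161 for Blvrb and 0.292 for Hebp1), in a fit of both genotypes alone (0.0575 and 0.0502), with Xist (0.0782 and 0.0599), with the Car1 limit at 10 (0.0736 and 0.0826) and with globin-high cells kept (0.249 and 0.341). Hebp1 was lost with the globin limit at 1000 too (0.0669). The marker sums and depths given beside Uros belong to the same cells, and their part in these values was not tested.

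In globin-high cells, 20 of the heme pathway genes were tested and 1 fell in G12D/E2-KO, where 2.07% of all genes were called: Hmox1, the heme oxygenase that breaks heme down. It had 24, 90 and 19 UMIs in WT and 5, 0 and 0 in G12D/E2-KO globin-high cells, or 32.9, 49.9 and 17.7 CPM against 3.56, 0 and 0 CPM. The other mutants also stood below WT at each time point, with 11.2, 13.1 and 2.63 CPM in G12D, wholly below WT (adjusted p = 0.131), and 26.7, 12.3 and 12.2 in E2-KO, which overlapped it (adjusted p = 0.274). A count of 0 allows up to 3.51 CPM at T2 and 7.39 at T3 (3 UMIs per library, counting error only). The adjusted p was 0.000306 by edgeR, and the call held in all 11 alternatives and with each library left out. Hmox1 is also made by macrophages, and 5 macrophage markers, all 5 detected in each genotype, summed to 77.4 to 154 CPM in WT globin-high cells, 25.2 to 42.8 in E2-KO, 40.7 to 57.1 in G12D and 1.17 to 35.6 in G12D/E2-KO, so that they too lay lower in the double mutant than in WT. Their part in the Hmox1 value was not tested.

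Of 13 iron genes, 10 were tested in globin-high cells, and 1 rose and 0 fell in G12D/E2-KO (background 2.07%). That gene was Tfrc, the transferrin receptor that brings iron into the cell, with 287, 258 and 321 CPM in WT and 622, 526 and 426 in G12D/E2-KO (log2 change 0.95, SE 0.21, adjusted p = 0.0110). The groups did not overlap. E2-KO had 372, 362 and 554 CPM, also wholly above WT (log2 difference 0.71, adjusted p = 0.0649), and G12D 449, 260 and 331, which overlapped it. The call in G12D/E2-KO was lost without WT T1 (adjusted p = 0.129), WT T3 (0.0943), G12D/E2-KO T1 (0.0523) or G12D/E2-KO T2 (0.0551), in a fit of both genotypes alone (0.0897), and with the tables as deposited (0.0523). The macrophage markers lay wholly below WT in these cells (1.17 to 35.6 CPM against 77.4 to 154), and their part in the Tfrc value was not tested. Tfrc belongs to the erythroid markers used to check the gates. In Car1-positive cells 11 iron genes were tested, and 0 were called in G12D/E2-KO by edgeR or by DESeq2, where 6.45% of all genes were called by edgeR. At an unadjusted p under 0.05 by edgeR there were 5, beside 2312 of 9981 genes.

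Genes whose levels ran like each member's were found by Pearson's r of log2(CPM + 1) over 36 combinations of 12 libraries and 3 cell groups (Car1-positive, globin-high and other cells), among 4473 genes with a mean of at least 20 CPM. Alas2 ran with Hba-a2 (r = 0.991), Hbb-bt (0.988) and Hbb-bs (0.987), and Slc25a37 with Hbb-bt (0.987), Hbq1b (0.985) and Hbb-bs (0.984), all globin genes. Uros ran with Txnrd2 (0.990) and Slc43a1 (0.988), and Urod with Mgst3 (0.990) and Fam210b (0.989). Fech ran with Fam210b (0.992), Dhrs11 (0.990) and Slc25a51 (0.988), and Cpox with Tspan33 (0.994), Blvrb (0.994) and Ank1 (0.993). Slc25a38 ran with Fth1 (0.984), Tmem14c (0.981) and Sh3glb1 (0.978), Alad with Fbxo7 (0.981), Mtfr1 (0.981) and Gypc (0.977), and Ppox with Cd24a (0.977) and Bsg (0.976). The 36 points share libraries and depth, and most of the spread behind these values is that between cell groups.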

How the data were processed

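Droplet 3' single-cell RNA-seq libraries of c-Kit+ bone marrow cells were processed by the authors with Cell Ranger on mm10. Cells with more than 10% mitochondrial transcripts and Scrublet doublets had been removed, and the deposited tables hold raw UMI counts for 27998 genes. The annotation used for counting and the number of animals per library are not given in the sources used here. The row names of cells number the time points differently from the labels, and each table was assigned by its labels.

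UMIs were summed per library over all cells, Car1-positive cells and globin-high cells, and CPM (counts per 1000000) is relative to that sum. UMI counts from the 3' end are not scaled to length, so that levels are compared within a gene. Cells of different libraries were matched by the cosine of their detected genes (limit 0.85). Sums were fitted across all genes with edgeR 4.0.16 in R 4.3.3 (filterByExpr, TMM, robust quasi-likelihood, genotype and time point as terms, 6 residual degrees of freedom, Benjamini-Hochberg over all genes, threshold 0.05). Genes tested numbered 12848, 9981 and 5597. Time points stand in for replicates, with 3 libraries per genotype. DESeq2 1.42.0, other normalization, filters, gates, covariates and samples were tried as alternatives. Xist as a covariate in effect left G12D/E2-KO T3 out of the comparisons of genotypes. Counts were simulated for G12D/E2-KO against WT, with the same dispersion for every gene and cell group and no difference between time points. Of genes changed 2-fold, 66% (all cells), 51% (Car1-positive) and 40% (globin-high) were recovered, over 12772, 9916 and 5478 genes. Of the calls, 3.51%, 6.83% and 3.12% were false, above the threshold of 5% in Car1-positive cells. These shares hold for that simpler setting and not for the fits of the data. Depth was 12636998 to 23646292 UMIs per library and limits the precision of the members with few UMIs. Named genes were all 9 members, Alas1, at most 4 further listed genes per comparison by smallest adjusted p, and the 3 genes most like each member, except that some genes the rule names are not reported here. The members and lists were chosen with earlier results of these data known.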

Additional observations from a re-analysis of the deposited data

Results flagged for a closer look

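Alad over all cells moved in opposite directions with loss of Ezh2 in the absence and in the presence of NRas G12D. The ratio of CPM of E2-KO to WT was 1.02, 1.20 and 1.04 at T1, T2 and T3, above 1 at all 3 time points, with overlapping groups. In Car1-positive cells that ratio was 0.779 to 1.003, above 1 at 1 of 3 time points. Over all cells the ratio of G12D/E2-KO to G12D was 0.796, 0.304 and 0.939, below 1 at all 3. Alad had 101, 107 and 89.4 CPM in WT, 103, 128 and 92.7 in E2-KO, 123, 161 and 61.2 in G12D, and 98.2, 48.7 and 57.4 in G12D/E2-KO. The interaction by edgeR was -0.89 on the log2 scale (SE 0.43, unadjusted p = 0.065, adjusted p = 1), so the test of the difference did not pass the threshold.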

How the results depend on the processing

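Counts of called members were recomputed for 18 comparisons, and 156 of 177 values from alternatives other than leaving out a library stayed within 1.5 times the reported count. Most of the 18 reported counts were 0, and a 0 in an alternative was taken as a match to them. Direction was compared for 20 log2 differences of members and further listed genes, and 0 of them reversed. Each of these had passed the threshold in the reported fit or in an alternative. The other differences of the members were not checked for a reversal. In G12D/E2-KO over all cells the count of 1 became 3 with DESeq2, 2 without a filter on low counts and 2 in a fit of both genotypes alone. In G12D/E2-KO Car1-positive cells the count of 2 became 0 without the time point, 0 with the Car1 limit at 10, 0 with globin-high cells kept and 1 with the globin limit at 1000. It stayed at 2 with Xist and in a fit of both genotypes alone, where Uros was lost and Slc25a37 passed instead. In E2-KO Car1-positive cells the count of 0 became 1 with DESeq2, 1 without a filter and 1 with Xist. In E2-KO globin-high cells 0 became 1 without a filter, 1 in a fit of both genotypes alone and 1 with Xist. In G12D globin-high cells 0 became 1 with DESeq2, 1 without a filter, 1 in a fit of both genotypes alone and 1 with Xist. At T3 against T1 in Car1-positive cells 0 became 3 with DESeq2, 4 without a filter and 1 with the Car1 limit at 10. The count with Xist is not given there, since the T3 term then rested on G12D/E2-KO T3 alone. The cause of these changes in counts was not tested. No share over all genes was counted for these alternatives, so the counts are not results about the members. Leaving out each library in turn gave 0 to 4 members in G12D/E2-KO over all cells, 0 to 3 in its Car1-positive cells and 0 to 1 in its globin-high cells. The same range was 0 to 1 for E2-KO in Car1-positive and in globin-high cells, for G12D in globin-high cells, and for T3 against T1 in Car1-positive cells.

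Same-time libraries of WT and a mutant correlated at -0.0714 to 0.326 in their deviations from group means, so the time point, used as a replicate block in the reported fit, did not pair every set of libraries; the counts without the replicate block were 1 in G12D/E2-KO over all cells and 0 in its Car1-positive cells. A limit on globin of 2000 to 8000 per 10000 UMIs, chosen after seeing the data, gave a log2 difference of Alad in G12D of 1.07 (adjusted p = 0.169). Precision is limited by 3 libraries per genotype at different times, by Xist at T3, by cells held in both T1 tables, and by 24 to 199 UMIs per library for Slc25a38, Uros and Ppox in globin-high cells.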
